A study of Macaca fascicularis with 12 samples.

Results

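Pieces of macaque brain that were rich in striatal neuron transcripts were compared with pieces that were poor in them and mostly carried thalamic transcripts. The striatum-rich class holds 6 of the 12 arrays of the study and the striatum-poor class the other 6, so that all arrays take part. The classes are not labelled groups. They were chosen by measured values, namely the mean signal of striatal neuron genes such as PPP1R1B, DRD2 and GPR6 on each array. Differences in gene signal between the classes are therefore given as a description, with no test.

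The study injected baculovirus BV-HSVtk, a vector made in insect cells and named for herpes simplex virus thymidine kinase, into the striatum of 3 adult male cynomolgus macaques (Macaca fascicularis). The left hemisphere of each animal received 4 injections of 10 µL with 1e8 viral particles each, aimed at the caudate and putamen. The right hemisphere received a mock preparation at matching places, which was virus-free Sf9 insect cell medium purified in the same manner. After 2 days, pieces near the injected sites weighing about 100 mg were collected, each for 1 array. The arrays are called BV 1 to BV 6 and mock 1 to mock 6 after their replicate numbers. Numbers 1 and 2 are from animal 1, numbers 3 and 4 from animal 2 and numbers 5 and 6 from animal 3, and the odd number of a pair is piece 1 of the hemisphere, the even one piece 2. Striatum-rich were BV 4, BV 6, mock 2, mock 4, mock 5 and mock 6, and striatum-poor were BV 1, BV 2, BV 3, BV 5, mock 1 and mock 3. The rich class thus has 2 BV and 4 mock arrays and the poor class 4 BV and 2 mock arrays. All tissue of both classes had been injected, virus was always on the left, and no uninjected tissue was used here.

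The striatum is the input station of the basal ganglia. Most of its cells are medium spiny projection neurons, which use GABA, receive dense dopamine input and read it through cAMP and the phosphoprotein DARPP-32 (PPP1R1B). The thalamus, which lies close to it, is built mostly of glutamatergic relay neurons whose identity depends on the transcription factor TCF7L2, with smaller groups marked by SHOX2 or LHX9. Both regions are crossed by myelinated fibres, so that oligodendrocyte transcripts are plentiful in either.

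The classes part on the mean log2 signal of the striatal projection neuron markers (14 measured genes), where the rule set a level above 8.5 for rich and below 7.6 for poor pieces. Rich arrays ranged from 8.88 to 9.95 with a median of 9.36, and poor arrays from 6.42 to 7.57 with a median of 6.92. The arrays nearest to the gap were mock 4 at 8.88 on the rich side, and BV 3 at 7.57 and BV 5 at 7.50 on the poor side. A mean of 14 thalamic markers, for which the rule set no level, ran the other way. TCF7L2, SHOX2 and NTNG1 on this list were among the markers given with the classes. The list was also chosen with earlier results of these data known. The thalamic mean is thus no independent support for the class names. It ranged from 6.53 to 7.79 on rich arrays with a median of 7.08, and from 7.95 to 9.04 on poor arrays with a median of 8.95.

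**Figure D1:**
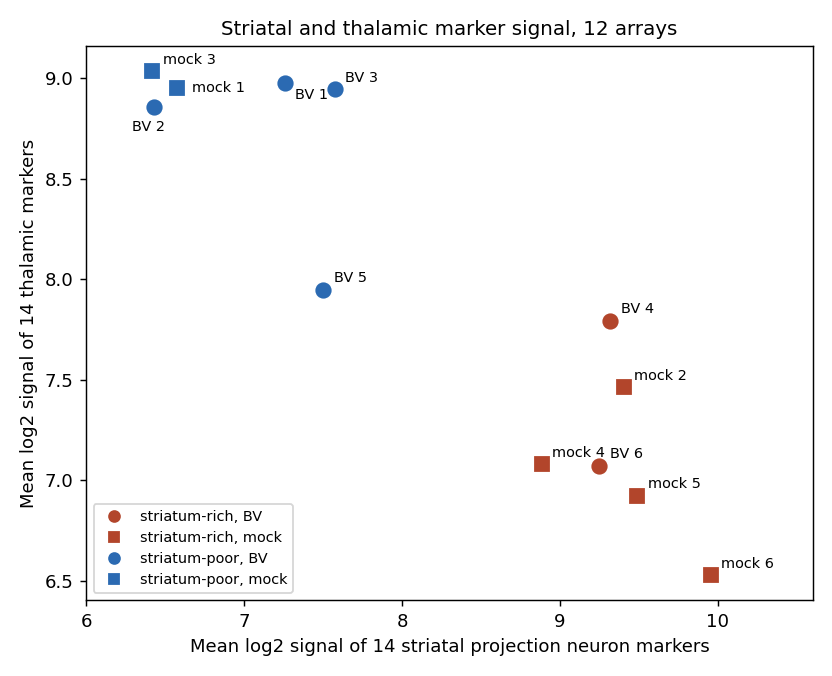
Each point is 1 array, with the mean log2 signal of 14 striatal markers on the horizontal axis and of 14 thalamic markers on the vertical axis; colour gives the class and shape the treatment. The poor arrays lie at the upper left between 7.95 and 9.04 on the thalamic axis, and BV 5, at 7.95, lies nearest to the rich array BV 4 at 7.79.

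The thalamic mean set 5 of the 6 poor arrays well apart from the rich ones, but BV 5 only barely. On BV 5 the thalamic mean was 7.95, just above the 7.79 of the rich array BV 4, while the other poor arrays lay between 8.86 and 9.04. BV 5 also had the highest myelin mean of all arrays, at 10.49, and the lowest mean of pan-neuronal markers among the poor arrays, at 9.98 against 10.85 to 11.02. Its mean of interferon-stimulated genes was the highest of the 12, at 9.79. BV 4 was the rich array with the highest thalamic mean. Whether either class is pure for its region was not tested. Where leaving out BV 5 changes the count of a gene list, both counts are given below. BV 5 was singled out by the values above, and list counts without other arrays are not given. Genes for which BV 5 alone overlapped with the rich arrays can be called once it is left out. Nothing is read from the second counts.

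The piece number also marks a set of arrays with its own scale, and the sets are spread unequally over the classes. Piece 1 arrays (1 rich and 5 poor) had median deposited signals of 50.2 to 62.8 and a highest signal of 10989 to 14126. Piece 2 arrays (5 rich and 1 poor) had medians of 25.4 to 32.7 and a highest signal of 4385 to 5313. Their mean signal without the lowest and highest 2% of probe sets was 100, against 142 to 189 on piece 1 arrays. All arrays were therefore quantile-normalised and values taken as log2(signal + 3.49), so that the folds of dim genes are understated. Animal 1 gave 1 rich and 3 poor pieces, animal 2 gave 2 and 2, and animal 3 gave 3 and 1. Arrays of 1 animal share that animal, and differences between the classes rest on 3 animals. In bulk tissue, fewer cells of a type and less RNA per cell cannot be told apart.

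A class difference below is the limma coefficient of class, rich minus poor, in log2 units with its standard error, in a fit with treatment as the other term and n = 6 arrays per class. A gene, represented by its brightest probe set, is called where this difference is at least 1 in size and the 6 arrays of one class do not overlap with the 6 of the other. Overlap was judged on values not adjusted for treatment. The fit takes arrays of 1 animal as independent, and the classes were chosen by measured values. Its standard errors may therefore be too small. Of 11143 genes, 186 (1.67%) were called higher in rich pieces and 90 (0.808%) lower. Differences of at least 2 were seen for 73 genes called higher and 16 called lower, of at least 3 for 19 and 4, and of at least 4 for 6 and 1. Regardless of size, the arrays of the classes did not overlap for 306 genes with higher and 194 with lower values in rich pieces. Since the rule used this contrast, the counts of the lists below are set beside these shares and nothing is read from them.

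The count of lower genes depended on BV 5. Without that array 249 genes were called lower, among them all 90, and 213 higher. Without BV 4 instead, 126 were called lower and 197 higher. With the replicate number as a block, 51 were called lower and 180 higher. This block sets each BV array against the mock array of the same animal and piece. Only for numbers 2 and 5 do these arrays differ in class, with BV on the poor side. The class difference with that block therefore rests on these pairs, BV 5 among them. Genes called higher made up 67.4% of the calls in the main analysis, 46.1% without BV 5, 19.3% without normalization, where the median of all genes was shifted by -0.50, and 78.1% with array medians made equal, where it was shifted by 0.12. Differences below are those of the quantile-normalised values, in which the median of all genes was -0.000268.

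Striatal projection neuron genes were higher in rich pieces, as the rule demanded. Of the 26 genes on the list, 14 were measured above the intensity filter, 11 of these were called higher and 0 lower, and the median difference was 2.21. Without BV 5 there were 12. DRD1, ADORA2A, TAC1 and PDYN had no probe set of that symbol. The list therefore holds more markers of the indirect pathway, the striatal neurons that carry DRD2, than of the direct pathway. The individual values show how far the arrays of the classes lay apart.

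PPP1R1B, or DARPP-32, an inhibitor of protein phosphatase 1 that is switched on by dopamine through cAMP, had log2 signals of 9.79, 10.24 and 10.46 (lowest, median and highest) on rich arrays. On poor arrays it had 7.22, 7.74 and 8.42, a class difference of 2.46 ± 0.23 or 5.51-fold. DRD2, the dopamine D2 receptor, had 8.33, 9.10 and 10.41 on rich arrays. On poor arrays DRD2 had 5.53, 6.73 and 7.32, a difference of 2.43 ± 0.37. It was highest on mock 6 and lowest on BV 2, and 3 of its 3 probe sets were called. GPR6, an orphan receptor of indirect-pathway neurons, had 8.88, 9.33 and 10.30 against 3.66, 5.28 and 6.13, a difference of 4.38 ± 0.44 or 20.8-fold. The classes did not overlap for any of these 3 genes, and the difference was largest for GPR6, which was lowest on BV 2.

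**Figure D2:**
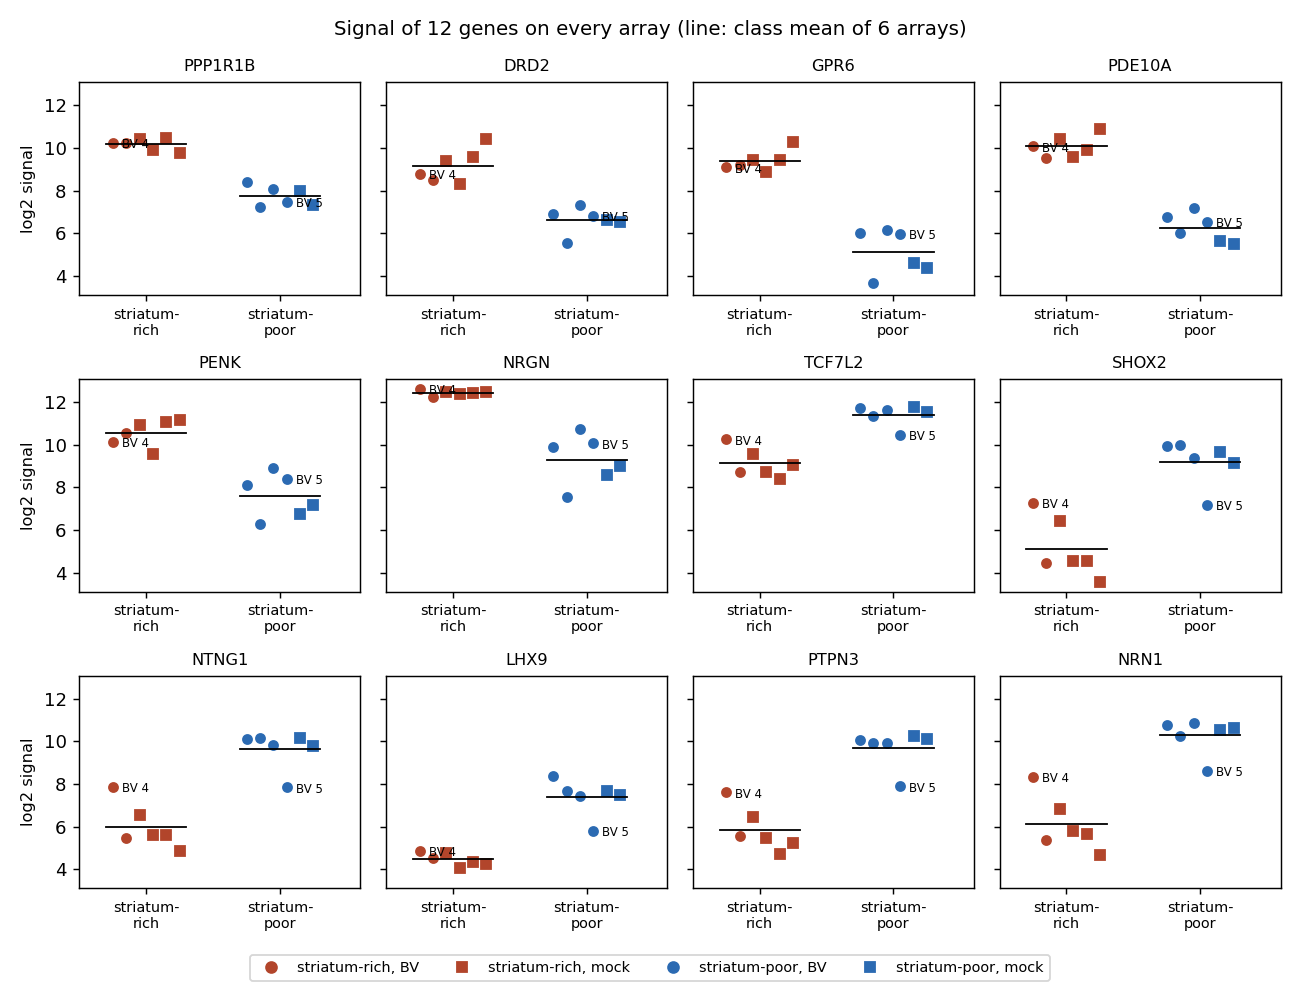
Log2 signal of 12 genes on each of the 12 arrays, split by class, with colour for class, shape for treatment and a line for the mean of 6 arrays. The upper genes (PPP1R1B to NRGN) are higher on every rich array; for SHOX2 and NTNG1 the arrays BV 4 and BV 5, labelled in each panel, lie at about the same level between the others.

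Among the other genes of the list, ANO3 alone had a larger difference than GPR6. ANO3, a membrane protein of the anoctamin family, had 10.34, 11.03 and 11.84 on rich and 4.92, 6.05 and 7.53 on poor arrays. At 5.04 ± 0.44 or 32.8-fold it had the largest difference of all called genes. PDE10A, the phosphodiesterase that breaks down cAMP and cGMP in medium spiny neurons, differed by 3.92 ± 0.32. RGS9, which speeds up the shut-off of G proteins at dopamine and opioid receptors, differed by 3.91 ± 0.47. PENK, the precursor of enkephalin, the opioid peptide of the indirect pathway, had 9.56, 10.74 and 11.16 against 6.27, 7.66 and 8.90, a difference of 3.07 ± 0.45. The other probe set of PENK did not follow it, with a difference of -0.02.

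CHRM4, the muscarinic receptor of direct-pathway neurons, differed by 1.99 ± 0.34, and ADCY5, the adenylyl cyclase through which dopamine receptors act in these cells, by 1.85 ± 0.24. SYNDIG1L and the potassium channel subunit KCNIP2 differed by 1.59 ± 0.28 and 1.51 ± 0.26. The 3 measured markers that were not called were GNG7, a G protein subunit paired with ADCY5, at 1.23 ± 0.29, the exchange factor RASGRP2 at 0.93 ± 0.35, and IDO1 at 0.89 ± 0.75. GNG7 was called without BV 5. IDO1, an enzyme of tryptophan breakdown that interferon induces in many cells, reached 10.73 on a poor array and 9.90 on a rich one, and its treatment difference was 2.58 (limma adjusted p = 0.371).

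Among 26 measured genes of dopamine and cAMP signalling, 8 were called higher and 1 lower, or 9 and 2 without BV 5, with a median difference of 0.48. Of these, 5 (PPP1R1B, DRD2, PDE10A, RGS9 and ADCY5) are also on the striatal list. The others called higher were ARPP19, a phosphatase inhibitor, at 1.32 ± 0.12, PRKCB, a protein kinase C, at 1.21 ± 0.27, and PRKAR2B, a regulatory subunit of protein kinase A, at 1.03 ± 0.15. For ARPP19 and PRKCB the probe sets disagreed, with lowest values of -0.71 and -1.27. PRKAR1B, another regulatory subunit of protein kinase A, was the 1 called lower, at -1.63 ± 0.29. It lay between 5.82 and 6.93 on rich and between 7.21 and 8.81 on poor arrays, so that different subunits of the same kinase were higher in either class.

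A few neuropeptide genes were far higher in rich pieces. Of 18 measured genes of opioid, tachykinin and other peptide systems, 4 were called higher (OPRL1, TAC3, PENK and NPY) and 0 lower, and the median was 0.18. Without BV 5 there were 4 and 1. OPRL1, the receptor for nociceptin, had 11.56, 11.69 and 12.26 on rich and 5.23, 8.05 and 9.72 on poor arrays, a difference of 4.21 ± 0.65. A second probe set of OPRL1 differed by 3.95 and another by -0.08. TAC3, the precursor of neurokinin B, which marks a class of primate striatal interneurons, lay between 5.84 and 8.43 on rich and between 3.27 and 5.50 on poor arrays, a difference of 3.08 ± 0.48. NPY, the peptide of another interneuron class, differed by 2.27 ± 0.28.

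Interneuron transcripts were called in 1 direction. Of 7 measured interneuron markers 4 were called higher and 0 lower, with a median of 1.36. Beside TAC3 and NPY these were LHX6 at 1.99 ± 0.27 and NKX2-1 at 1.36 ± 0.25, transcription factors of interneurons born in the medial ganglionic eminence. PVALB, the calcium-binding protein of fast-spiking cells, had 6.35, 8.69 and 9.81 on rich and 9.01, 10.36 and 11.72 on poor arrays. Its difference of -1.83 ± 0.59 was not called, as the arrays overlapped. PVALB is also made outside the striatum, in the thalamic reticular nucleus among other places. Of the 3 measured cholinergic markers 0 were called in either direction.

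Forebrain transcription factors were called in both directions, with 6 of 33 measured genes called higher and 6 lower, and 7 and 9 without BV 5. Higher in rich pieces were LHX6, BCL11A, a factor of medium spiny neuron development, at 1.96 ± 0.21, MEIS2 at 1.41 ± 0.20, NKX2-1, the retinoic acid receptor RARB at 1.33 ± 0.25 and FOXP1, a factor of striatal projection neurons, at 1.00 ± 0.19. The other 3 probe sets of FOXP1 were not called, and the lowest differed by -0.31. FOXP2, which projection neurons of striatum and thalamus both use, differed by 0.55 ± 0.36, and its other probe set by -0.29.

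Lower in rich pieces were LHX9 at -2.93 ± 0.36, TCF7L2 at -2.25 ± 0.32, ETV1 at -1.78 ± 0.32, the nuclear receptors NR2F2 at -1.55 ± 0.26 and NR2F1 at -1.11 ± 0.20, and IRX1 at -1.33 ± 0.31. Of 12 measured genes of retinoid signalling, 2 were called higher and 0 lower, with a median of -0.03. They were RARB and CRABP1, a retinoic acid binding protein, which had 7.67, 9.04 and 9.99 on rich and 5.95, 6.69 and 7.12 on poor arrays, a difference of 2.37 ± 0.38.

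Thalamic marker genes had lower values in rich pieces for 12 of 14 measured genes, and for several of them BV 5 decided whether the classes overlapped. The list holds 20 genes, and 3 were called lower and 0 higher, with a median of -1.35. Without BV 5 there were 8 called lower. SLC17A6, the vesicular glutamate transporter of relay neurons, and LEF1 had no probe set of that symbol, and SLC17A7, the transporter of cortical neurons, was below the intensity filter.

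TCF7L2, the factor through which Wnt signals reach the genome and a selector of thalamic identity, had log2 signals of 8.40, 8.90 and 10.26 on rich arrays. On poor arrays TCF7L2 had 10.48, 11.57 and 11.78, and 6 of its 6 probe sets were called. Its difference of -2.25 is 4.75-fold. SHOX2, a homeobox factor of thalamic relay neurons, had 3.56, 4.53 and 7.28 on rich and 7.17, 9.52 and 9.97 on poor arrays, a difference of -3.94 ± 0.65. The overlap came from BV 4 at 7.28 and BV 5 at 7.17 alone, and without BV 5 SHOX2 was called, at -4.29. NTNG1, a netrin relative that guides thalamocortical axons, had 4.88, 5.61 and 7.86 against 7.84, 9.98 and 10.16. Its difference was -3.58 ± 0.52 with BV 5, where only BV 4 and BV 5 overlapped, and -3.88 without it, where it was called.

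PTPN3, a cytoplasmic tyrosine phosphatase, had 4.69, 5.52 and 7.61 on rich and 7.90, 10.00 and 10.23 on poor arrays, a difference of -3.79 ± 0.52 or 13.9-fold. LHX9, a LIM homeobox factor of thalamic neurons, had 4.04, 4.42 and 4.87 against 5.79, 7.58 and 8.35. For both genes BV 5 was the lowest poor array. RORA, an orphan nuclear receptor, differed by -1.76 ± 0.32 and RGS16, a G protein regulator, by -2.46 ± 0.68, and these were called only when BV 5 was left out, at -1.93 and -2.64. PRKCD, a protein kinase C on the thalamic list, ran against it, with 0.67 ± 0.23 for its brightest probe set and 2.82 for another.

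Of 4 measured genes of thalamic interneurons and habenula 2 were called lower and 0 higher, with a median of -1.11. They were GATA3, a factor of GABA neurons from the caudal thalamus and midbrain, at -1.65 ± 0.27, and IRX1. Genes of the hypothalamus and midbrain (6 measured) had 0 calls and a median of 0.02. Of 8 measured markers of cortical excitatory neurons 2 were called higher, with a median of 0.05: TESPA1 at 3.49 ± 0.39 and LAMP5, a membrane protein of forebrain synapses, at 2.29 ± 0.27. The other 6 were not called, though 1 of them was called lower without BV 5, and 4 of the 8 had lower values in rich pieces.

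Among called genes, the largest difference in rich pieces after ANO3 was that of GALNT1, an enzyme that starts O-linked glycans, at 4.69 ± 0.51. Then came GPR6, OPRL1, DYDC2 at 4.19 ± 0.63 and CST6, a cystatin protease inhibitor, at 4.15 ± 0.66. PDE10A and RGS9 followed, then CKM, the muscle form of creatine kinase, at 3.84 ± 0.41, COCH at 3.57 ± 0.32, the Wnt ligand WNT16 at 3.56 ± 0.39, TESPA1, IRF7, LPL and NRGN. CKM had a probe set that differed by 0.17. LPL, lipoprotein lipase, differed by 3.31 ± 0.32 and had a probe set at -0.29. NRGN, neurogranin, a calmodulin-binding protein of dendritic spines, had 12.23, 12.45 and 12.63 on rich and 7.56, 9.46 and 10.72 on poor arrays. Its rich arrays lay close together while the poor ones were spread widely. The symbols are those of the platform annotation, which can be old, and whether each probe set measures the gene it is named for was not tested.

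Among genes called lower, the largest differences were those of NRN1, neuritin, a small anchored protein that promotes neurite growth, at -4.06 ± 0.58, and PTPN3. CPNE9, a copine, at -3.29 ± 0.49 and PPM1J, a protein phosphatase, at -3.09 ± 0.38 came next. SHOX2 at -3.94 and NTNG1 at -3.58 were not called and so are not ranked here. NRN1 had 4.68, 5.72 and 8.33 on rich and 8.61, 10.59 and 10.85 on poor arrays. After LHX9 came NHLH2, a helix-loop-helix factor of developing neurons, at -2.91 ± 0.37 and RIMS3, a protein of the presynaptic release site, at -2.89 ± 0.37. ZDHHC22 at -2.64 ± 0.36, MOCS1, an enzyme of molybdenum cofactor synthesis, at -2.63 ± 0.41 and GDF6, a bone morphogenetic protein, at -2.60 ± 0.46 followed. The other 2 probe sets of MOCS1 differed by -0.29 and 0.30. SEZ6L, a membrane protein of neurons, was at -2.18 ± 0.37, with 5 of 6 probe sets called. TCF7L2 was also among the leading 15, and the remaining 3 bore provisional locus names.

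**Figure D3:**
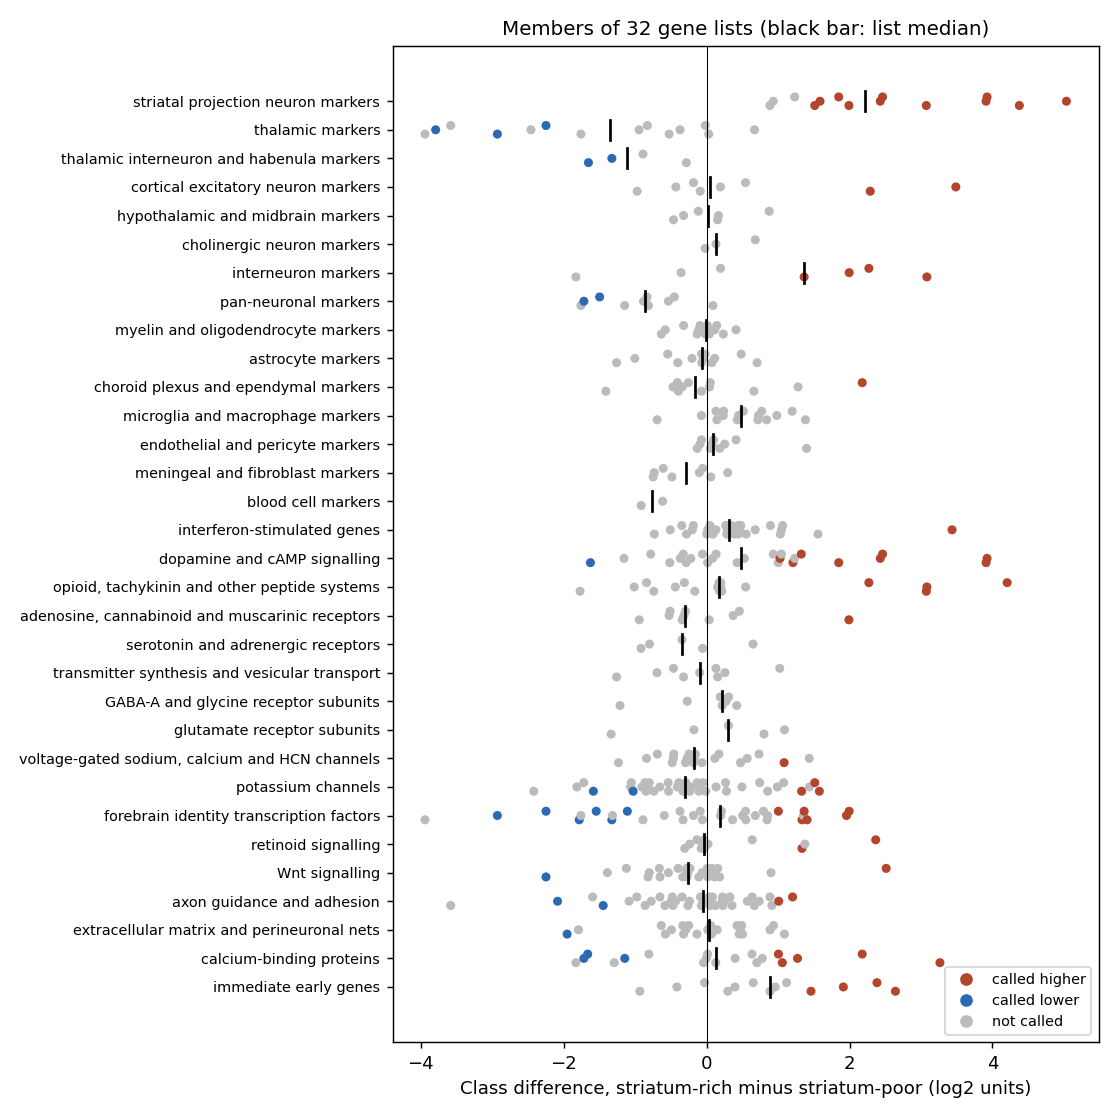
Class difference (rich minus poor, log2 units) of every measured member of 32 gene lists, with members called higher in red, called lower in blue and others in grey, and a black bar at each list's median. The striatal list has its median at 2.21 and the thalamic list at -1.35, while the medians of the myelin and astrocyte lists are -0.01 and -0.07.

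Pan-neuronal markers had lower values in rich pieces for 9 of 10 measured genes. Of these, 2 were called lower and 0 higher, with a median of -0.86, and 5 were called lower without BV 5. ELAVL4, an RNA-binding protein of neurons, differed by -1.50 ± 0.21, and VSNL1, a neuronal calcium sensor, by -1.72 ± 0.33. The mean of the list lay between 9.40 and 10.14 on rich arrays and between 9.98 and 11.02 on poor ones.

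Calcium-handling genes were called in both directions, 5 higher and 3 lower of 19 measured, or 4 and 3 without BV 5, with a median of 0.13. NRGN led the first group, with ITPKA, a kinase of dendritic spines that acts on inositol trisphosphate, at 2.18 ± 0.32 and CAMK4, a calcium-dependent kinase of the nucleus, at 1.27 ± 0.22. VSNL1 and its relative HPCAL1, at -1.66 ± 0.27, led the second, with CAMK2D at -1.15 ± 0.26. Of 40 measured potassium channel genes 3 were called higher and 2 lower, or 3 and 8 without BV 5, and the median was -0.30. KCNH3, at 1.58 ± 0.21, and KCNH5, at -1.59 ± 0.29, are voltage-gated channels of the same family and went opposite ways. KCNAB1, an accessory subunit, differed by 1.33 ± 0.28, and KCNK3, a background channel, by -1.03 ± 0.19. Of 20 genes of sodium, calcium and HCN channels, 1 was called, the sodium channel SCN3A, at 1.08 ± 0.25, and without BV 5 there was also 1 called lower.

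Of 5 measured glutamate receptor subunits and 7 subunits of GABA-A and glycine receptors 0 were called in either direction. The largest differences in these lists were those of GRIA4, an AMPA receptor subunit, at -1.34 ± 0.34, and GABRA3, at -1.21 ± 0.32, and both were called when BV 5 was left out. Another probe set of GRIA4 differed by 0.11. GAD1 and GAD2, which make GABA, differed by 0.26 ± 0.16 and 0.15 ± 0.17, with probe sets of either sign. The GABA transporter SLC6A11, which astrocytes make, differed by -1.26 ± 0.36 and was likewise called only without BV 5. Among 10 receptors for adenosine, cannabinoids and acetylcholine CHRM4 alone was called, and among 5 serotonin and adrenergic receptors 0 were.

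Genes of axon guidance and adhesion had 2 of 39 measured members called higher and 2 lower, with a median of -0.05, but 1 higher and 5 lower without BV 5. EPHB1, an ephrin receptor, differed by 1.20 ± 0.30 and UNC5A, a netrin receptor that was not called without BV 5, by 1.01 ± 0.26, while CNTN3, a contactin, differed by -2.09 ± 0.27 and the cadherin CDH18 by -1.45 ± 0.22. Of 27 Wnt signalling genes 1 was called in each direction, the receptor FZD7 at 2.51 ± 0.32 and TCF7L2, but 1 higher and 3 lower without BV 5. Of 22 genes of the extracellular matrix HAPLN4, a link protein of perineuronal nets, was the 1 called, at -1.95 ± 0.36, and 2 were called lower without BV 5.

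Immediate early genes, which neurons switch on within minutes of activity, had higher values in rich pieces for 10 of 13 measured members and lower values for 3, with a median of 0.89. Of these, 4 were called higher and 0 lower, or 4 and 1 without BV 5. EGR4 had 6.99, 7.83 and 9.33 on rich and 4.60, 5.29 and 6.35 on poor arrays, a difference of 2.64 ± 0.41. EGR2, also a zinc finger factor, differed by 2.38 ± 0.38, ARC, which acts on AMPA receptors at the synapse, by 1.91 ± 0.35, and HOMER1, a scaffold of the spine, by 1.46 ± 0.29. FOS did not follow them clearly, with values from 5.28 to 9.87 on rich and from 6.02 to 10.22 on poor arrays. All pieces had been injected and dissected, and the part of handling in these values was not tested.

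Markers of glia had few calls between the classes, but so had all genes (1.67% higher and 0.808% lower). These counts are therefore not read as a result about glia. Of 14 measured myelin and oligodendrocyte genes 0 were called, with a median of -0.01. MBP, a main protein of myelin, lay between 12.57 and 12.76 on rich and between 12.61 and 12.76 on poor arrays, a difference of -0.02 ± 0.07. Of 13 astrocyte genes 0 were called, or 1 lower without BV 5, the transporter SLC6A11, with a median of -0.07, and GFAP differed by -0.02 ± 0.09. AGT, which astrocytes of some deep brain regions make in quantity, differed by -0.40 ± 0.27. The mean myelin level ranged from 9.62 to 10.43 on rich and from 9.86 to 10.49 on poor arrays, so that the classes overlapped.

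Of 10 endothelial and pericyte, 8 meningeal and 2 blood markers 0 were called. HBB, a haemoglobin chain, differed by -0.62 ± 0.23. Of 12 markers of choroid plexus and ependyma 1 was called higher, CA12, a carbonic anhydrase, at 2.18 ± 0.35, and the list's median was -0.16. Without BV 5 there was also 1 called lower. The 16 microglia and macrophage genes had a median of 0.48, with 0 called in either direction. Their median was -0.04 without normalization and -0.04 with the replicate block, so their direction is not settled. Among them LYZ, at 1.38 ± 0.64, and CD68, at 1.20 ± 0.65, had the largest differences, and their arrays overlapped widely.

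The treatment term of the same fit compares BV with mock tissue at a given class, which the rule did not use. Of 31660 probe sets, 18 passed at an adjusted p of 0.05 (limma, two-sided, Benjamini-Hochberg over all probe sets), 18 higher and 0 lower in BV tissue. They carried 10 gene symbols, and for 9 genes (0.0808% of genes tested) the brightest probe set was among them. The fit takes arrays of 1 animal as independent, and the count was 14 with animal as a fixed block and 26 with animal as a random block. Treatment cannot be told apart from hemisphere. The count was 8 without BV 6, 9 without mock 1 and 9 without mock 3, 50 without mock 4, 58 without BV 1 and 6 with the replicate block. Of the genes called between the classes 0 were among these 9, where the shares over all genes were 1.67% higher and 0.808% lower. Both classes hold BV and mock arrays. A gene with a large treatment difference could therefore be called only if its class difference was larger still. Nothing is read from this 0.

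ISG15, a ubiquitin-like protein induced by interferon, had a treatment difference of 3.64 (adjusted p = 0.000325) and a class difference of 0.27 ± 0.32 with treatment as a term. Its median without that term was 8.52 on rich arrays, of which 2 are BV, and 10.92 on poor arrays, of which 4 are. It lay between 10.69 and 12.20 on the 6 BV arrays and between 7.54 and 9.09 on the 6 mock arrays, which did not overlap. MX1, an antiviral GTPase, had a treatment difference of 3.04 (adjusted p = 0.000325) and a class difference of 0.01 ± 0.25. Of 32 measured interferon-stimulated genes 1 was called between the classes. The list's median class difference was 0.32, against -0.18 without normalization and -0.56 with the replicate block. Its median treatment difference was 1.85. As overlap was judged without regard to treatment, a call was hard to reach for such genes.

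The 1 called was IRF7, the transcription factor that amplifies interferon production, and its probe sets told different stories. The brighter one had 9.13, 9.89 and 10.92 on rich and 5.81, 6.45 and 7.53 on poor arrays. This probe set had a class difference of 3.43 ± 0.37 and a treatment difference of 0.25 (adjusted p = 0.802). On the other probe set the classes overlapped, from 5.42 to 8.69 on rich and from 4.59 to 9.11 on poor arrays, a class difference of 0.64 ± 0.43. There the 4 highest values were on BV arrays of both classes. Which of them measures IRF7 was not tested.

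**Figure D4:**
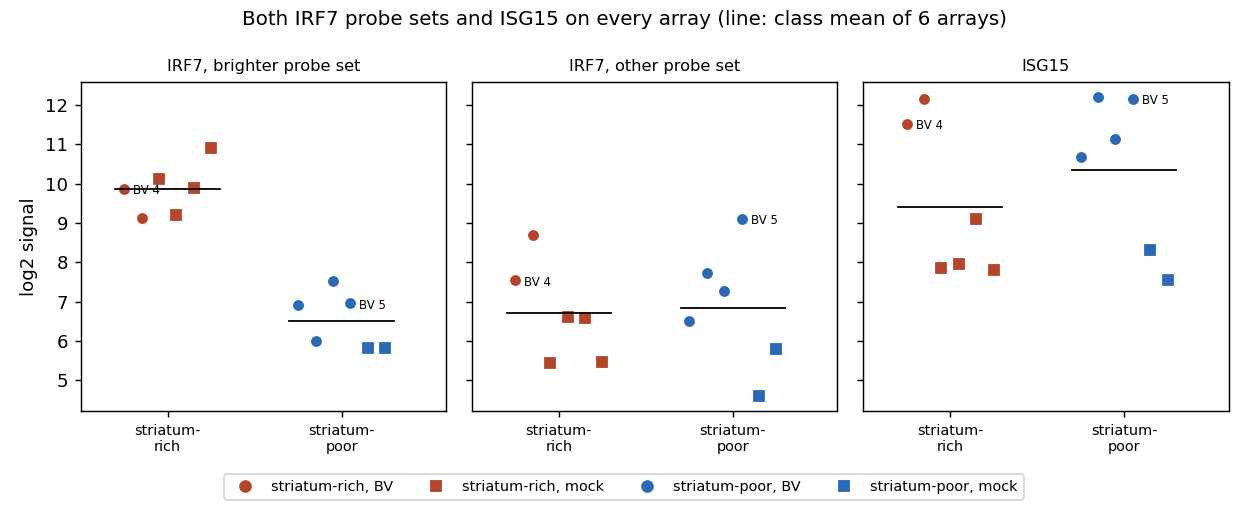
Log2 signal of both IRF7 probe sets and of ISG15 on each array, split by class, with colour for class, shape for treatment and a line for the class mean. The brighter IRF7 probe set separates the classes (9.13 and above on rich, 7.53 and below on poor arrays), whereas ISG15 separates BV arrays (10.69 and above) from mock arrays (9.09 and below) in both classes.

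Whether the class difference was alike in BV and mock tissue was tested as a class by treatment interaction. Of 31660 probe sets 0 passed (limma, adjusted over all), with 307 at an unadjusted p under 0.05, or 0 and 1024 with the replicate block. This test has 2 arrays in its smallest groups, and the count does not show that the differences were equal. PPP1R1B had interaction terms of -0.05 and TCF7L2 of 0.91.

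Because class and array set overlap, the difference was also taken within each set. Within piece 1, mock 5 was compared with the mean of mock 1 and mock 3, and within piece 2, the mean of BV 4 and BV 6 with BV 2. These comparisons use different arrays of the same 3 animals, have 1 array on one side, and have no error of their own. In both, the rich and poor arrays came from different animals, with animal 3 on the rich side and animal 1 on the poor side. Class and animal cannot be told apart in either. PPP1R1B differed by 2.80 in piece 1 and 3.02 in piece 2, GPR6 by 4.96 and 5.50, and ANO3 by 5.67 and 5.60. TCF7L2 differed by -3.24 and -1.86, SHOX2 by -4.86 and -4.11 and NTNG1 by -4.39 and -3.50. The 3 striatal genes thus had similar differences in both sets, while TCF7L2 and PTPN3 (-5.49 and -3.36) had larger ones in piece 1.

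Over 11143 genes the within-set differences had a Pearson correlation of 0.665, given as a description, since genes are not independent and the arrays share animals. Of the 705 genes at least 1 higher in piece 1 and the 307 in piece 2, 217 were shared, and of the 568 and 293 at least 1 lower, 199 were shared. Of the 186 genes called higher 147 were at least 1 higher in both sets, and of the 90 called lower 62 were at least 1 lower in both. In the piece 2 comparison BV 4, the rich array with the most thalamic signal, was 1 of the 2 rich arrays. Differences between animals can enter both comparisons, and their part was not tested.

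**Figure D5:**
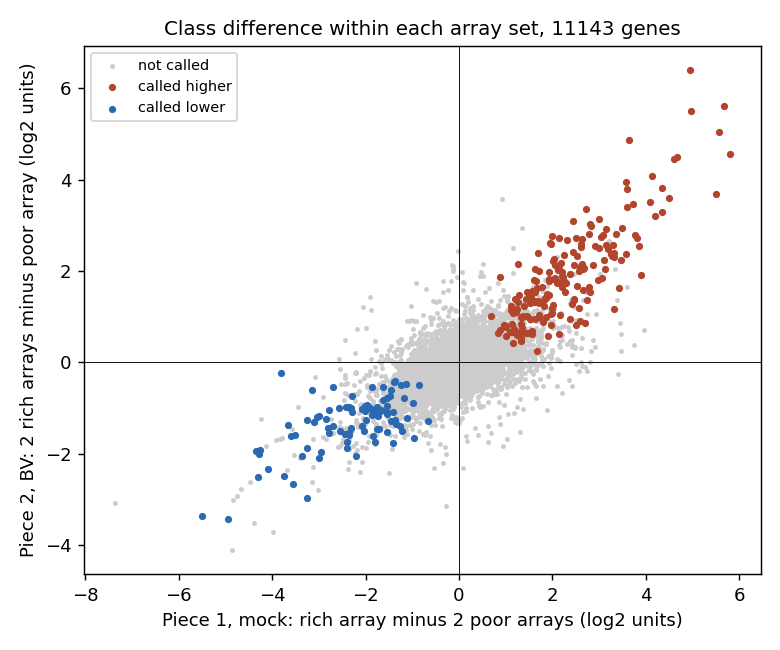
Class difference of 11143 genes within piece 1 (mock 5 minus the mean of mock 1 and mock 3) on the horizontal axis and within piece 2 (mean of BV 4 and BV 6 minus BV 2) on the vertical axis, both in log2 units. Genes called higher are red and called lower blue; their signs are fixed by the rule that the arrays of the classes do not overlap, and the points spread along the diagonal with a Pearson correlation of 0.665 over all genes.

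The genes whose signal followed PPP1R1B most closely over the 12 arrays were HR (Pearson correlation 0.968), KLF5 (0.963), SSBP4 (0.963), NGEF (0.962) and ZNF277 (0.961). NGEF, a guanine nucleotide exchange factor, had a class difference of 3.09 ± 0.32 and HR, a corepressor of nuclear receptors, 1.27 ± 0.14. ZNF277 differed by 2.89 ± 0.25, but 1 of its 3 probe sets by -0.01. For TCF7L2 the closest were RIMS3 (0.995), PTPN3 (0.993), LOC696885 (0.992), LOC699134 (0.987) and MOCS1 (0.985). The correlations for TCF7L2 were the closer ones and include the separate position of BV 5, which was the lowest poor array for RIMS3, PTPN3 and MOCS1.

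RNA quality was compared through the control probe sets at the 3′ and 5′ ends of actin and GAPDH, which the rule did not use. The log2 ratio of 3′ to 5′ signal of actin was 0.21 to 1.26 on rich and 0.14 to 0.42 on poor arrays, a difference in means of 0.215 (exact permutation within treatment, two-sided p = 0.178). The smallest p this test allows is 0.00444, and it too takes arrays of 1 animal as independent. Apart from mock 6, at 1.26, the arrays lay between 0.14 and 0.485, and without mock 6 the difference was 0.0606. For GAPDH the difference was 0.000791 (exact permutation p = 0.991).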

How the data were processed

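What the authors deposited are linear probe set intensities, 1 column for each of 12 one-colour arrays. GCOS 1.4.0.036 stands in the submitters' processing notes, and neither the summary algorithm nor the scaling is given in the sources used here. After removal of 99 control probe sets, arrays were quantile-normalised, values taken as log2(intensity + 3.49), 3.49 being the 10th percentile of all intensities, and the 31660 of 52766 probe sets with a mean at or above the 40th percentile (4.95) kept. The platform annotation gave 1 symbol for 24969 probe sets, several (not named here) for 361 and none for 27535. Fits used limma 3.58.1 in R 4.3.3 and were tested on simulated data. The simulated noise was independent between arrays, with no likeness within an animal or piece. The simulation therefore cannot show how the fits fare with such likeness.

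The members and the 32 gene lists (743 genes, 437 tested) were chosen with earlier results of these data known. Named genes were the 6 markers, the 15 of largest difference called in each direction, up to 4 called members (otherwise 2) of each list, a panel, and the 5 most like PPP1R1B and TCF7L2. Outside this rule, after their values were seen, ADCY5, SYNDIG1L, GNG7, RASGRP2, IDO1, RGS16, PRKCD, MEIS2, FOXP1, NR2F1, NR2F2, ETV1, PVALB, PRKAR1B, ARPP19, PRKCB, PRKAR2B, KCNK3, CAMK4, CAMK2D and FOS were named.

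Same-numbered BV and mock arrays are from the same animal and piece, and their deviations correlated by 0.284 to 0.623, so a fit with the replicate block was also run. Other alternatives changed normalization, pseudocount, filter, animal or piece terms, arrays and probe set rule. Precision is limited by 12 arrays from 3 animals.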

Additional observations from a re-analysis of the deposited data

Results flagged for a closer look

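Over 276 groups of 6 arrays (104 genes, 32 list means and 2 quality ratios in each class), 28 had an array whose gap to its nearest neighbour took more than 0.625 of the group's range (Dixon's 95% value), which chance alone gives in about 1 of 20 groups. The genes are correlated, so the flags are not independent. BV 5 accounted for 18 of them, mock 6 for 6, mock 1 for 2, and BV 2 and mock 4 for 1 each.

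On poor arrays BV 5 was the lowest for the thalamic marker mean at 7.95, and for the pan-neuronal mean at 9.98. It was lowest for TCF7L2 at 10.48, SHOX2 at 7.17, NTNG1 at 7.84, LHX9 at 5.79, PTPN3 at 7.90, RGS16 at 10.82, NRN1 at 8.61, NHLH2 at 6.18, RIMS3 at 9.34, MOCS1 at 9.49 and GDF6 at 9.55. It was also lowest for HAPLN4 at 7.91, KCNAB1 at 8.09 and VSNL1 at 11.38. It was the highest poor array for TAC3 at 5.50 and EGR2 at 6.37. For KCNAB1, which was higher in rich pieces, BV 5 thus lay farther from the rich arrays than the other poor arrays did.

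On rich arrays mock 6 stood apart for the actin 3′ to 5′ ratio at 1.26, against 0.21 to 0.48 on the other 5. It was highest for RASGRP2 at 11.09, LPL at 10.59, SCN3A at 7.85 and EGR2 at 7.45, and lowest for PRKAR1B at 5.82. Among the rest, mock 1 was the lowest poor array for FZD7 at 3.35 and GFAP at 12.17, BV 2 the lowest poor array for the cholinergic mean at 4.97, and mock 4 the lowest rich array for KLF5 at 5.49.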

How the results depend on the processing

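The counts of genes called between the classes, 186 higher and 90 lower, moved as follows where they changed by over 1.5 times. Without normalization they were 82 and 342. On mock arrays alone they were 399 and 370, and on piece 1 arrays alone 420 and 490. In animal 1 alone they were 439 and 413, and in animal 2 alone 608 and 428. With fewer arrays, groups fail to overlap more easily. In animal 3 alone, whose only poor array is BV 5, they were 273 and 95, which is within that limit. Of the 90 genes called lower, 23 were shared there, against 79 in animal 1 and 77 in animal 2. The lower count was 51 with the replicate block, 265 on piece 2 arrays alone and 279 without both BV 4 and BV 5. This last setting was chosen after seeing the data. Within the 4 hemispheres that hold both classes the lower count was 207. There a call asked for a mean difference of at least 1 in size and the same sign in all 4 hemispheres. Leaving out 1 array at a time gave 171 to 227 higher and 80 to 249 lower. The 18 probe sets of the treatment term became 28 with the filter at the 60th percentile, 6 with the replicate block, and 8 to 58 without 1 array. The cause of these moves was not tested. The interaction had 0 calls in every leave-one-out fit, with 220 to 569 at an unadjusted p under 0.05. The actin ratio differed by 0.0606 to 0.271 without 1 array and the GAPDH ratio by -0.0425 to 0.0620. With the replicate block the interaction also had 0 calls, but 1024 probe sets at an unadjusted p under 0.05 against 307, and the higher count was 180. For 83 called genes under 33 settings, 2722 values were computed, 282 moved by more than the spread between arrays and 1 changed sign: PRKCB, at -0.0301 with the median over its probe sets. Signal over background could not be judged without detection calls, so low values have no sure order.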
